A study of Homo sapiens with 4 samples.

Results

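The genes described here belong to the TGF-beta pathway, and they were taken as a list of 9 symbols: the ligand genes TGFB1, TGFB2 and INHBA, the receptor genes TGFBR1 and TGFBR2, the signal transducer SMAD3, the inhibitors SMAD7 and SKIL, and the response gene TGFBI. All 9 were found by Ensembl identifier in the table of 63856 genes, and all 9 were among the 15830 genes that passed the filter on low counts. The cells sequenced by RNA-seq were MCF10A, a non-tumorigenic and estrogen receptor-negative human mammary epithelial line, in 2 variants with 2 biological replicates each. Wild type cells were unmodified, whereas HSF1-pLVX cells were transduced with a lentivirus that carries HSF1 cDNA in the pLVX-Puro plasmid and were selected with puromycin. HSF1 is the main transcription factor of the heat shock response. Both variants were grown in the same medium, with horse serum, insulin, hydrocortisone and EGF. The sample labels also list cholera toxin, which the paper's methods do not name. Empty-vector cells were not analysed here, so HSF1 overexpression cannot be told apart from transduction, selection or separate culture.

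The TGF-beta ligands are secreted in a latent form, held by their own propeptide and by matrix proteins, and are released by proteases, thrombospondin and integrins. An active dimer brings together the type II receptor (TGFBR2) and the type I receptor (TGFBR1), which phosphorylates SMAD2 and SMAD3. These join SMAD4 and act on target genes in the nucleus, and the targets include inhibitors of the pathway itself. In mammary epithelium the pathway restrains proliferation and can drive the epithelial-to-mesenchymal transition (EMT).

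Library totals were between 18688109 and 24184285 counts. Levels are given as CPM, that is, counts scaled to library size after TMM normalization. Genes were called where the p of the quasi-likelihood test of edgeR, adjusted by the Benjamini-Hochberg method over all genes tested, was 0.05 or less. HSF1 itself was at 200.4 and 189.2 CPM in wild type replicates 1 and 2 and at 982.4 and 998.6 CPM in HSF1-pLVX replicates 1 and 2, as the labels state. Of the 10 listed markers of basal mammary epithelium, all 10 passed the filter, and their summed level was between 19856 and 20803 CPM in wild type and between 12105 and 12896 CPM in HSF1-pLVX libraries. Of these markers 5 fell (KRT14, KRT17, KRT6A, LAMA3 and EPCAM) and 4 rose (TP63, KRT5, EGFR and ITGA6), with log2 fold changes from -3.55 for KRT14 to 3.48 for TP63. EPCAM is on this list, although the paper's flow cytometry describes basal cells as low in EPCAM and luminal progenitors as positive for it. Its fall is therefore not read here as the loss of a basal marker. Of 8 luminal hormone-responsive markers 6 were tested, of which 5 fell, among them KRT8 (-3.24) and GATA3 (-2.28), and ESR1 rose (1.65), while PGR was at 0 counts in every library. Their summed level was between 4885 and 4969 CPM in wild type and between 778.0 and 955.7 CPM in HSF1-pLVX libraries. Of 10 fibroblast markers, 5 held 3 counts or fewer in every library, among them COL1A2, COL3A1 and LUM, and the summed level was between 199.3 and 227.2 CPM in wild type and between 48.9 and 59.9 CPM in HSF1-pLVX libraries, most of it from FAP in every library. Of the 3 fibroblast markers tested, FAP fell (log2 fold change -2.35), DCN rose (5.16) and COL1A1 was not called. None of 7 leukocyte and endothelial markers passed the filter, and their summed level was between 0.84 and 1.51 CPM over the 4 libraries. Beside these counts, 33.2% of all genes tested were called lower and 32.7% higher. The part of the marker shifts in the results that follow was not tested.

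Of the 9 genes, 6 fell (TGFB2, INHBA, TGFBR1, TGFBR2, SMAD7 and SKIL), 2 rose (SMAD3 and TGFBI) and 1 was not called (TGFB1). The changes of all genes were wide: 33.2% of the 15830 genes tested were called lower and 32.7% higher, 65.9% in all. By size, 5 of the 9 genes were called and more than 2-fold lower, against 14.0% of all genes tested, and 1 was more than 2-fold higher, against 14.9%. Their median log2 fold change was -1.16, and that of all genes tested was 0.02. In 8 of the 9 genes the 2 libraries of a variant did not overlap the other 2, which was also so for 83.1% of all genes tested. In bulk RNA, fewer cells that express a gene and less RNA of it per cell cannot be told apart.

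**Figure D1:**
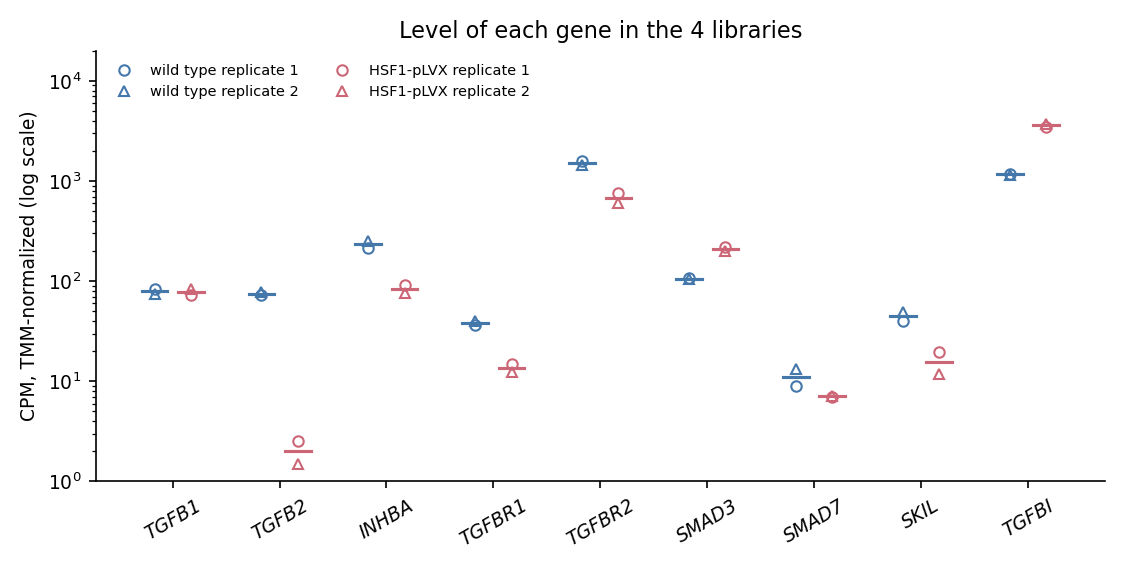
Level of each of the 9 genes in CPM (vertical axis, log scale) in wild type (blue) and HSF1-pLVX libraries (red), with replicate 1 as a circle, replicate 2 as a triangle and the mean of both as a bar. TGFB2 drops from above 70 to below 3 CPM, TGFBI rises to a mean of 3593 CPM, and TGFB1 overlaps between the variants.

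The ligand genes are shown first with the sequences around their transcription starts, since TGFB2 fell the most of the 9 genes, INHBA fell less and TGFB1 was not called. Each window runs from 250 bases before to 50 bases after a RefSeq start (GRCh38.p14), 5′ to 3′ on the strand of the gene, and capitals mark matches to the motifs searched: CAGACA and GTCTAGAC, which SMAD proteins bind, GAANNTTC and TTCNNGAA, which are adjoining units of a heat shock element, and TGANTCA, which AP-1 binds. Both strands were searched. The TGFB1 window is chr19:41353873-41354172 on the minus strand, the TGFB2 window chr1:218345086-218345385 on the plus strand and the INHBA window chr7:41703041-41703340 on the minus strand.
TGFB1: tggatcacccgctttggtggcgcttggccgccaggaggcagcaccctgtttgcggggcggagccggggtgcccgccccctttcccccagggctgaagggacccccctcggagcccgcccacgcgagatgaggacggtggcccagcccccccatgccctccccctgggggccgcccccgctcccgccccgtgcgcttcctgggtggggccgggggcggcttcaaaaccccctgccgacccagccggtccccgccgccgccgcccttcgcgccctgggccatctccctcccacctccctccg
TGFB2: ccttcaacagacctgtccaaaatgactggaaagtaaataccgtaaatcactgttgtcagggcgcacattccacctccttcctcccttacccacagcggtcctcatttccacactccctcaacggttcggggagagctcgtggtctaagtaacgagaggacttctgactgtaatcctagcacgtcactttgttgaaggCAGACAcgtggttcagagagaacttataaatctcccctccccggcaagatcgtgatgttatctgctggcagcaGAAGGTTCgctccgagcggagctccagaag
INHBA: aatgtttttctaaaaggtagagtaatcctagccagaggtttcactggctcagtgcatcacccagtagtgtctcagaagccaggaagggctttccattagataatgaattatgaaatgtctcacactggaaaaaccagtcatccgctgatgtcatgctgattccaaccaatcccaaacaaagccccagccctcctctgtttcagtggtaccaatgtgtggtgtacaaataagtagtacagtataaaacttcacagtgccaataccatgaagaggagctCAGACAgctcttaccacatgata
The TGFB2 window held CAGACA at position -53 from the start and a GAANNTTC match at position 21, the INHBA window held CAGACA at position 28, and the TGFB1 window held no match. CAGACA is in 16.9%, the pair of heat shock units in 13.5% and the AP-1 motif in 7.71% of the 35116 windows. These are thus common letters. The longer heat shock element with 3 units, which is in 0.49% of all windows, was in none of the 23 windows of the 9 genes. Beyond the ligand genes, matches to the shorter motifs were in windows of SMAD3, which rose, and of TGFBR1, TGFBR2 and SMAD7, which fell. SKIL, which fell, and TGFBI, which rose, each had fewer windows searched than any of these genes, and theirs held no match. GC content was 77.3% in the TGFB1 window, 51.7% in the TGFB2 window and 43.3% in the INHBA window, against a median of 58.7% over all windows. The RefSeq start of TGFB2 lies 899 bases upstream of the first base counted for the gene. That of INHBA lies inside the span counted, 2744 bases from its first base.

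TGFB2 (ENSG00000092969.11, chromosome 1 of hg38, 218346235 to 218444619) showed the largest change of the 9 genes. It encodes the second of the TGF-beta ligands, which binds poorly to TGFBR2 without the co-receptor TGFBR3. Its level was 72.3 and 77.5 CPM in wild type replicates 1 and 2 and 2.55 and 1.51 CPM in HSF1-pLVX replicates 1 and 2, from 1358, 1440, 64 and 30 counts. Both wild type libraries were thus far above both HSF1-pLVX libraries. The mean was 36.9-fold lower in HSF1-pLVX cells, a log2 fold change of -5.17 ± 0.15 (SE, adjusted p = 5.08e-12, edgeR). Of the 5151 bases counted for TGFB2, 1371 are also counted for TGFB2-OT1, a transcript on the same strand that had 0 counts in every library, so reads from these bases may not have been counted for either gene.

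TGFB1 (ENSG00000105329.9, chromosome 19, 41301587 to 41353911), the most widely expressed ligand gene of the family, did not pass the test. It was at 83.4 and 74.6 CPM in wild type and at 72.9 and 83.7 CPM in HSF1-pLVX replicates 1 and 2. The 2 variants overlapped, and the replicate 1 ratio was below and the replicate 2 ratio above 1. The log2 fold change was -0.01 (standard error 0.094, adjusted p = 0.897, edgeR), with a 95% interval from -0.22 to 0.19, or 0.86-fold to 1.14-fold. HNRNPUL1, on the opposite strand, shares 215 of the 3238 bases counted for TGFB1. The strand setting of the counting is not given in the sources used here.

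The shares of the ligand transcripts differed between the variants. Divided by the length counted, TGFB2 made up 35.1% and 39.3% of the summed level of TGFB1, TGFB2 and TGFB3 in the wild type libraries and 2.14% and 1.11% in the HSF1-pLVX libraries. TGFB1 made up 62.3% ± 2.96 of it in wild type cells, and 97.7% ± 0.62 after HSF1 overexpression (SD, n = 2 each). TGFB3, with between 17 and 19 counts in every library, stayed under 1% throughout. The length used for TGFB2 includes the 1371 bases shared with TGFB2-OT1. Reads there may not have been counted, so the TGFB2 share may be too low in every library. The summed level of the 3 genes went from 39.1 ± 1.23 to 24.7 ± 2.25 CPM per kb (SD, n = 2 each). The variants did not overlap in these values. No test was made of the shares, since with 2 libraries on each side the smallest two-sided p of an exact permutation test is 0.33.

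**Figure D2:**
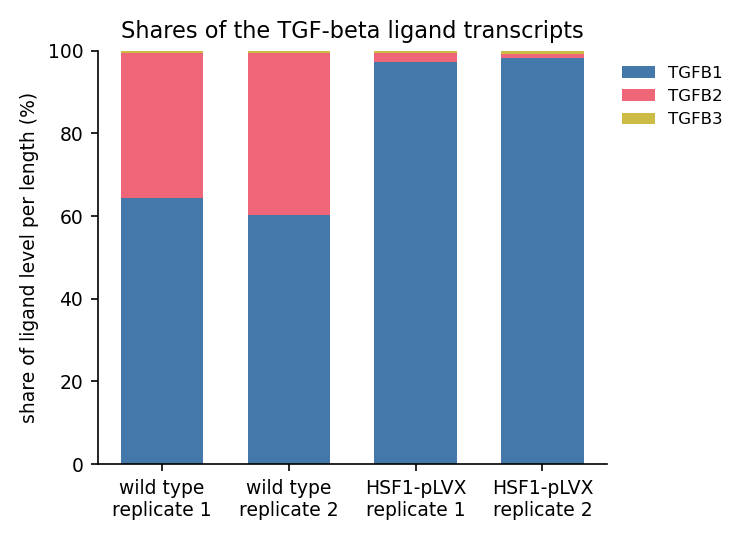
Share of TGFB1, TGFB2 and TGFB3 in their summed level per length (vertical axis, percent) in each library (horizontal axis). TGFB2 takes over 35% in both wild type libraries and under 3% in both HSF1-pLVX libraries.

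INHBA (ENSG00000122641.10, chromosome 7, 41667168 to 41705834) encodes the beta A subunit, whose dimer is activin A, a ligand that signals through SMAD2 and SMAD3 from its own receptors. It was at 214.7 and 253.2 CPM in wild type and at 91.5 and 76.0 CPM in HSF1-pLVX replicates 1 and 2. Both wild type values lay well above both HSF1-pLVX values. Its log2 fold change was -1.48 ± 0.11 (SE, adjusted p = 3.26e-08, edgeR).

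Both receptor genes fell. TGFBR2 (ENSG00000163513.17, chromosome 3, 30606502 to 30694142), the receptor that binds the ligand first, was at 1580 and 1458 CPM in wild type and at 754.3 and 608.9 CPM in HSF1-pLVX replicates 1 and 2. The log2 fold change was -1.16 ± 0.12 (SE, adjusted p = 8.72e-07, edgeR). TGFBR1 (ENSG00000106799.12, chromosome 9, 99104038 to 99154192), the kinase that phosphorylates the SMADs, was at 36.4 and 39.8 CPM in wild type and at 14.8 and 12.3 CPM in HSF1-pLVX replicates 1 and 2. Its log2 fold change was -1.48 ± 0.11 (SE, adjusted p = 3.36e-08, edgeR). In neither gene did the variants overlap. Per length, TGFBR2 transcripts were 58.3 ± 6.97 times as abundant as TGFBR1 transcripts in wild type cells. In HSF1-pLVX cells they were 72.9 ± 1.58 times as abundant (SD, n = 2 each).

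SMAD3 (ENSG00000166949.15, chromosome 15, 67063763 to 67195195), the transducer of the signal, rose while the receptors fell. Its level was 106.7 and 105.7 CPM in wild type and 218.4 and 200.6 CPM in HSF1-pLVX replicates 1 and 2. The log2 fold change was 0.98 ± 0.089 (SE, adjusted p = 2.47e-07, edgeR), and the variants did not overlap. SMAD2, the other receptor-activated SMAD of the pathway, fell by 0.43 on the log2 scale (standard error 0.084, adjusted p = 0.000439, edgeR). SMAD3 therefore went from 80.7% ± 0.25 to 91.8% ± 0.035 of the summed level per length of SMAD2 and SMAD3 (SD, n = 2 each). The length counted is 36366 bases for SMAD2 and 9113 for SMAD3, and these shares depend on it. Not divided by length, SMAD3 was at 106.2 ± 0.74 and SMAD2 at 101.1 ± 0.88 CPM in wild type cells. In HSF1-pLVX cells they were at 209.5 ± 12.5 and 75.1 ± 4.14 CPM (SD, n = 2 each).

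The inhibitors SMAD7 and SKIL, which TGF-beta itself is known to act on, both fell. SKIL (ENSG00000136603.13, chromosome 3, 170357678 to 170396835) encodes SnoN, a repressor bound to SMADs on target genes. It was at 40.1 and 49.4 CPM in wild type and at 19.4 and 11.8 CPM in HSF1-pLVX replicates 1 and 2, a log2 fold change of -1.50 ± 0.17 (SE, adjusted p = 2.17e-06, edgeR). The variants did not overlap, but its HSF1-pLVX libraries lay further apart, as a ratio, than those of the other genes except TGFB2. SMAD7 (ENSG00000101665.8, chromosome 18, 48919853 to 48950711), an inhibitory SMAD that targets the type I receptor, was at 8.90 and 13.1 CPM in wild type and at 7.01 and 7.10 CPM in HSF1-pLVX replicates 1 and 2. The wild type libraries of SMAD7 differed from each other more than wild type replicate 1 differed from the HSF1-pLVX libraries. Its log2 fold change was -0.64 ± 0.18 (SE, adjusted p = 0.00504, edgeR), the smallest change called among the 9 genes. Without wild type replicate 2 it was -0.35, and the call was lost. Without wild type replicate 1 it was -0.88. With HSF1-pLVX replicate 2 left out the call was also lost, although the value stayed at -0.64. The size of the fall thus depends on the wild type libraries.

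TGFBI (ENSG00000120708.16, chromosome 5, 136028895 to 136063818) encodes a secreted matrix protein that binds integrins and was named for its induction by TGF-beta. It was at 1187 and 1141 CPM in wild type and at 3490 and 3695 CPM in HSF1-pLVX replicates 1 and 2. Both HSF1-pLVX libraries were above both wild type libraries, 3.09-fold by the means. The log2 fold change was 1.63 ± 0.11 (SE, adjusted p = 1.17e-08, edgeR).

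**Figure D3:**
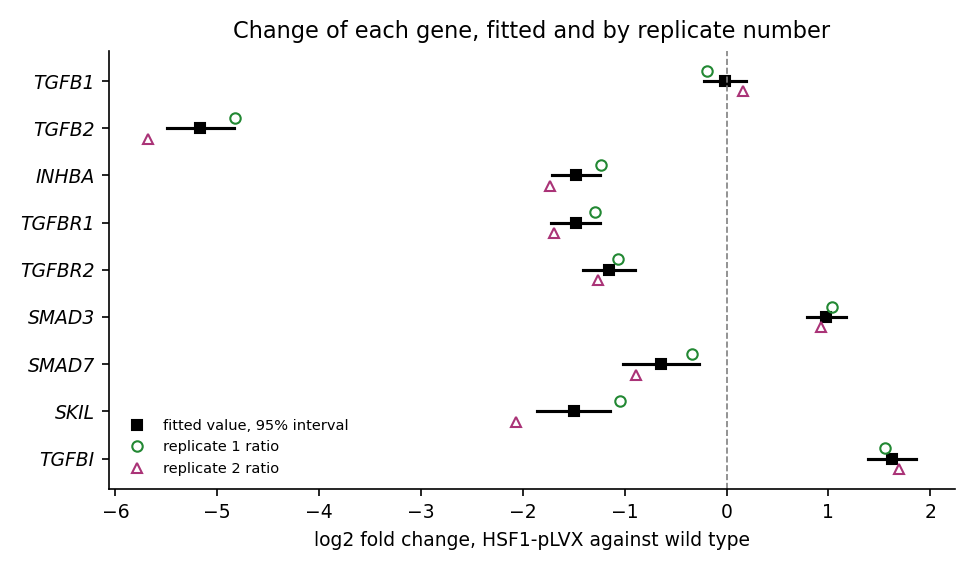
Log2 fold change of each gene in HSF1-pLVX against wild type cells (horizontal axis), as the fitted value with its 95% interval (black square and line) and as the ratio within replicate number 1 (green circle) and 2 (purple triangle). The 2 ratios have the same sign in every gene but TGFB1, and replicate 2 shows the larger fall in all 6 genes that fell.

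The ratios within replicate number had the same sign in 8 of the 9 genes. They were -4.83 and -5.68 for TGFB2, -1.05 and -2.06 for SKIL, -1.23 and -1.74 for INHBA and -0.34 and -0.89 for SMAD7 on the log2 scale. Of the 6 genes that fell, 5 were higher in HSF1-pLVX replicate 1 than in HSF1-pLVX replicate 2, all but SMAD7. The same order held in 62.4% of the 5253 genes called lower and in 51.6% of all genes tested. HSF1 differed little between these 2 libraries, at 982.4 and 998.6 CPM, and the part of the order between replicates in the falls was not tested.

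Per length counted, the order of levels changed at the top and at the bottom. In wild type cells TGFBR2 was the highest, at 322.9 ± 18.4 CPM per kb, before TGFBI at 149.0 ± 4.14. In HSF1-pLVX cells TGFBI was the highest, at 460.0 ± 18.5, before TGFBR2 at 144.9 ± 21.9 (SD, n = 2 each). INHBA and TGFB1 followed in wild type cells at 28.2 ± 3.28 and 24.4 ± 1.93, with the lower INHBA library (25.9) next to the higher TGFB1 library (25.8), and then TGFB2 at 14.5 ± 0.71 and SMAD3 at 11.7 ± 0.082 CPM per kb. SKIL and TGFBR1, at 5.75 ± 0.84 and 5.56 ± 0.35, overlapped, and SMAD7 was last at 2.98 ± 0.81. In HSF1-pLVX cells TGFB1 and SMAD3 overlapped, at 24.2 ± 2.35 and 23.0 ± 1.37, before INHBA at 10.1 ± 1.33. SKIL, TGFBR1 and SMAD7 overlapped at 2.01 ± 0.69, 1.98 ± 0.26 and 1.91 ± 0.017, and TGFB2 was last at 0.39 ± 0.14 CPM per kb.

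With 4 libraries in 2 variants, many genes share the profile of a given member. Over the 4 libraries, 850 of 15394 genes with a symbol and no zero lay within a root mean square distance of 0.1 on the log2 scale of TGFB1, 359 of SMAD3, 157 of TGFBR2 and 144 of TGFBI. TGFB2 had only 1 such gene, NAALADL2, at a distance of 0.084. The nearest gene was ADGRF4 for TGFBR1, INSIG1-DT for TGFBR2, PXK for TGFBI, KAZN for SMAD3 and ZNF823 for INHBA.

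The other genes of the pathway were taken from lists of 98 genes by role, of which 86 were tested. Of these, 48 fell (55.8%) and 24 rose (27.9%), with a median log2 fold change of -0.66, and 35 were called and more than 2-fold lower. Over all genes tested, 33.2% fell, 32.7% rose and 14.0% were more than 2-fold lower. Among the other ligands, 2 of 6 tested genes fell and 2 rose. INHBB, the beta B subunit of activin and inhibin, fell from 20.1 ± 0.73 to 0.15 ± 0.070 CPM (SD, n = 2 each). This rests on 5 and 2 counts in the HSF1-pLVX libraries against 387 and 364 in wild type (adjusted p = 2.52e-11, edgeR). GDF11 fell by 1.78 on the log2 scale, and GDF15, a divergent stress-induced member of the family, rose by 0.97, from 85.3 ± 0.90 to 166.9 ± 0.62 CPM. MSTN, named after its values were seen, also rose, from 2 and 2 counts in wild type to 29 and 19 in HSF1-pLVX replicates 1 and 2.

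Of 12 tested genes that hold the ligands latent or release them, 8 fell and 3 rose, with a median log2 fold change of -1.06. Over all genes tested, 33.2% fell and 32.7% rose. THBS1, thrombospondin-1, an activator of latent TGF-beta, fell by 3.23 on the log2 scale, from 6398 ± 186.4 to 680.6 ± 157.3 CPM. FBN1, the fibrillin that anchors latent complexes in the matrix, fell by 2.83, and FURIN, the protease that cleaves the propeptide, fell by 1.58. ITGB8, a subunit of an integrin that activates latent ligand, fell by 1.74, and ITGB6, the partner subunit of another such integrin, named after its values were seen, fell by 1.54. The 3 genes that rose were LTBP4, a latent TGF-beta binding protein (log2 fold change 1.54), and, named after their values were seen, LTBP3 (0.41) and FBN2 (0.52).

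Co-receptors and activin receptors moved in both directions, unlike TGFBR1 and TGFBR2. Of 8 tested, 5 rose and 3 fell, against 32.7% and 33.2% of all genes tested. Their median log2 fold change was 0.36. TGFBR3, betaglycan, which presents TGFB2 to TGFBR2, rose from 3.43 ± 0.40 to 9.20 ± 0.56 CPM (log2 fold change 1.43). Among the activin receptors, ACVR1B and ACVR2B rose by 0.62 and 1.20, whereas ACVR2A fell by 1.23. ENG, endoglin, fell by 0.92. ACVR1C, named after its values were seen, fell from 11 and 14 to 2 and 1 counts.

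SMADs and their partners changed little in size. None of the 9 tested genes changed by more than 2-fold. Of all genes tested, 14.0% were called and more than 2-fold lower and 14.9% higher. Of the 9 genes, 3 fell and 2 rose, against 33.2% and 32.7% of all genes tested. FKBP1A, which binds type I receptors and holds them inactive, fell by 0.86, and MED15, a Mediator subunit that SMADs contact, fell by 0.67. ZFYVE9, the anchor that brings SMADs to the receptor, rose by 0.30 and SP1 by 0.27. SMAD4, the shared partner of SMAD2 and SMAD3, was at 31.4 to 36.7 CPM in wild type and at 38.1 to 39.8 CPM in HSF1-pLVX libraries, with a log2 fold change of 0.20 (adjusted p = 0.0894, edgeR).

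Of 17 tested inhibitors and feedback genes, 12 fell, as SMAD7 and SKIL did, and 3 rose, with a median log2 fold change of -0.79. Over all genes tested, 33.2% fell and 32.7% rose. PMEPA1, a TGF-beta-induced protein that sequesters SMADs, fell by 3.10, from 575.2 ± 5.22 to 66.9 ± 17.8 CPM. FST and FSTL3, secreted binders of activin, fell by 3.76 and 2.23 alongside INHBA. Per length, INHBA transcripts were 1.29 ± 0.11 times those of FST in wild type cells. In HSF1-pLVX cells they were 6.36 ± 0.32 times those of FST (SD, n = 2 each). The genes that rose were DCN and BGN, small proteoglycans that bind TGF-beta, and TGIF2, a SMAD corepressor named after its values were seen (log2 fold change 0.55). DCN, also on the fibroblast list, went from 1 and 3 counts in wild type to 94 and 87 in HSF1-pLVX replicates 1 and 2, and BGN from 6 and 5 to 104 and 76.

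Of 29 tested genes that TGF-beta is known to induce in epithelial or mesenchymal cells, 18 fell and 6 rose, and 17 were more than 2-fold lower. Their median log2 fold change was -1.41, and it was opposite in sign to the change of TGFBI. Among all genes tested, 33.2% fell, 32.7% rose and 14.0% were called and more than 2-fold lower, with a median of 0.02. TAGLN, an actin-binding protein, fell from 388.0 ± 0.10 to 11.4 ± 0.032 CPM (log2 fold change -5.08). PDGFB, a growth factor, fell by 4.55, TGM2, which cross-links matrix proteins, fell by 3.10 and CDH2, N-cadherin, fell by 4.78. COL5A1 fell from 93 and 110 counts in wild type to 4 and 3 counts in HSF1-pLVX replicates 1 and 2. CCN2, a matricellular protein and common reporter of the pathway that was named after its values were seen, fell by 1.86. The 6 genes that rose, also named after their values were seen, were JUNB, KLF10, SNAI2, TGFB1I1, ANGPTL4 and VIM, with log2 fold changes from 0.36 (TGFB1I1) to 1.98 (VIM). This list mixes targets of other pathways, and several of its genes are also controlled by serum, YAP or AP-1. Of its members, COL1A1 is also a fibroblast marker, with a log2 fold change of 0.19 that was not called (adjusted p = 0.353, edgeR).

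Genes that TGF-beta is known to repress in epithelial cells were few, with 5 tested. MYC rose from 85.2 ± 6.64 to 529.7 ± 8.64 CPM (log2 fold change 2.64), ID1, an inhibitor of differentiation, from 65.7 ± 5.43 to 253.4 ± 18.6 CPM (1.95), and CDC25A, a cell cycle phosphatase, by 0.73. ID2 and CDH1, E-cadherin, fell by 1.20 and 1.43. The median over the 5 genes was 0.73, the value of CDC25A. In all, 3 of the 5 genes rose and 2 fell, against 32.7% and 33.2% of all genes tested, whose median was 0.02.

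**Figure D4:**
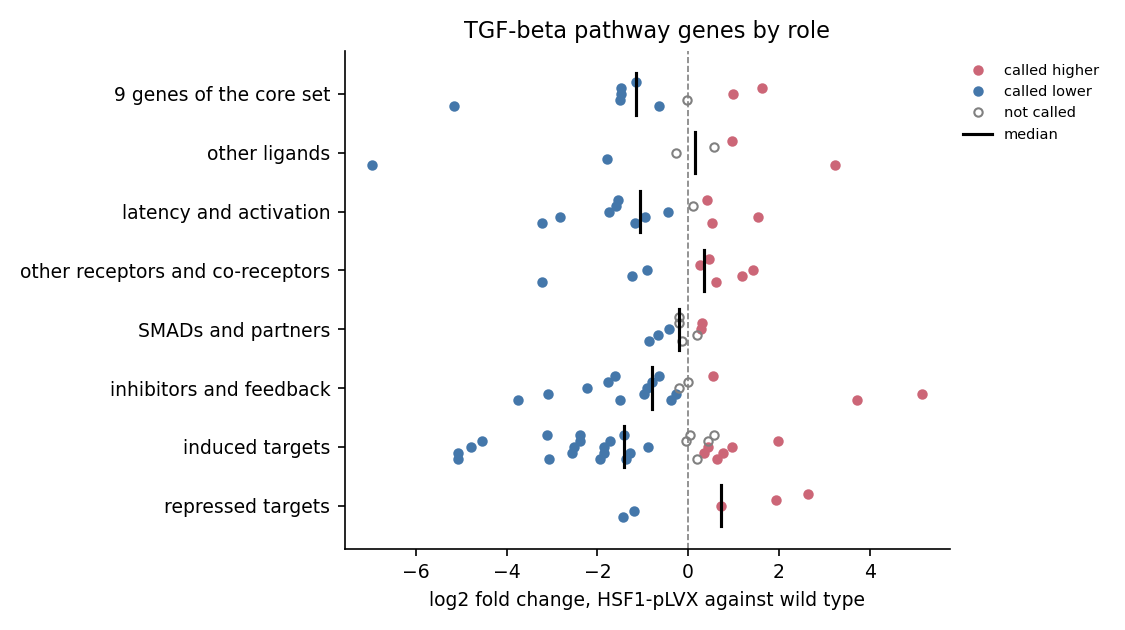
Log2 fold change (horizontal axis) of every tested gene of each list, called higher (red), called lower (blue) or not called (open), with the median of the list as a bar. The medians lie at -1.16 for the 9 genes, -1.41 for induced targets and 0.73 for the 5 repressed targets, of which 3 rose and 2 fell. The point at the far right is DCN, whose wild type libraries held 1 and 3 counts.

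On the normalized log2-like values that the authors deposited by gene symbol, the differences between the means of the variants were -4.80 for TGFB2, -1.53 for SKIL, -1.50 for INHBA, -1.46 for TGFBR1, -1.19 for TGFBR2, -0.59 for SMAD7 and -0.04 for TGFB1, and 0.95 for SMAD3. All 9, TGFBI included, differed from the fitted values by less than the spread between the ratios of the 2 replicate numbers.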

How the data were processed

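RNA-seq of 4 libraries was used, 2 of wild type and 2 of HSF1-pLVX cells, grouped by their titles. Gene-level raw counts were deposited by the authors, who used HISAT2 2.0.5 on hg38, SAMtools 1.13 and featureCounts 1.6.5 (strand and overlap settings not given in the sources used here). They also deposited DESeq2 1.32.0-normalized values on a log2-like scale, used here for the 9 genes. Symbols came from GENCODE release 44 by Ensembl identifier, and promoter windows from RefSeq (GRCh38.p14), which covers all 9 genes.

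The test was that of edgeR 4.0.16 under R 4.3.3 (TMM, filterByExpr, glmQLFit and glmQLFTest on the variant alone). Standard errors are the log2 fold change over the square root of F. Each gene had 2 residual degrees of freedom and a prior of 11.9. DESeq2 1.42.0, limma 3.58.1, other normalizations, no filter, the replicate block and each library left out were alternatives. Levels per length are CPM per kb of counted exons. The main design has no replicate block, because no source ties a number to 1 culture or date. Same-numbered libraries deviated from their variant means with a correlation of 0.00014 over all genes tested and -0.11 over those above 8 CPM. No source describes separate cultures beyond the words biological replicates, so p-values measure the spread between these libraries. Their totals limit the precision of genes with few counts.

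The genes and lists were chosen with earlier results of these data known. From each list, up to 5 called genes with the largest change, at least 50 counts in each library of the higher variant and the same direction in both replicate numbers were named. Other names are marked as chosen after their values were seen.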

Additional observations from a re-analysis of the deposited data

How the results depend on the processing

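SMAD3 and TGFBI stayed called higher and TGFB2, INHBA, TGFBR1, TGFBR2, SKIL and SMAD7 called lower under the other normalizations, no filter, DESeq2, limma-voom and the replicate block, with log2 fold changes between -5.20 and -5.10 for TGFB2 and between -0.67 and -0.58 for SMAD7. The value of TGFB1, not called in any setting, changed sign with library size as the only normalization (0.045), and lay between -0.11 and 0.087 with 1 library left out, above 0 without wild type replicate 1 (0.082) and without HSF1-pLVX replicate 1 (0.087). With 1 library left out, the lone library of a variant is assumed to vary like the other pair. SMAD7 alone then lost its call, with values between -0.88 and -0.35, so that 5 or 6 of the 9 genes were lower. The fall in the TGFB2 share of ligand transcripts was -35.6 percentage points per length, -45.8 when counts were not divided by length, and between -37.7 and -33.5 with 1 library left out.

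With the replicate block, 5138 genes were called higher and 5171 lower, against 5175 and 5253 without it, and no call of the 9 genes changed. With the crossed pairing, added after seeing the data, 5429 and 5487 were called. Over all settings the number called higher lay between 3765 (DESeq2) and 5458, and with HSF1-pLVX replicate 2 left out it was 3783. Depth limits SMAD7, with between 141 and 244 counts per library, and TGFB2 in HSF1-pLVX cells. No library left out moved any of the other 7 log2 fold changes called by over 1.5 times.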
